A study of Mus musculus with 6 samples.

Results

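NRF2 antioxidant genes and metallothioneins were followed as 10 genes picked by symbol: Nfe2l2, Slc7a11, Hmox1, Nqo1, Gclc, Gclm, Txnrd1, Srxn1, Mt1 and Mt2. Each had a row among the 55341 genes of the count tables, and all 10 were among the 16729 genes that passed the filter on low counts. RNA-seq of mouse cerebellar granule neurons (CGNs) in culture compared 3 libraries of cultures given DMSO, the solvent control, with 3 libraries of cultures given GSK-126, an inhibitor of the H3K27 methyltransferase EZH2. Per the study's methods, the CGNs came from CD-1 IGS pups of both sexes dissected at P6 to P8, with a Percoll gradient to isolate the granule neuron progenitors and each replicate a culture of pooled litters. All cultures received cytosine arabinoside (AraC) on the second day in vitro to block the division of non-neuronal cells. The labels name DIV3 without saying whether it is the day of addition or of harvest. It was taken here as the day of the single addition of drug or DMSO, because the methods place the harvest of treated cultures at DIV5. The dose used for this addition is not given in the sources used here.

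NRF2, the transcription factor encoded by Nfe2l2, is held in the cytoplasm and sent for degradation by KEAP1 and the ubiquitin ligase scaffold CUL3. Oxidants and electrophiles release it, and it then pairs with small MAF proteins on antioxidant response elements, where BACH1 competes with it. Its targets import cystine (Slc7a11), make glutathione (Gclc and Gclm), reduce thioredoxin and peroxiredoxins (Txnrd1 and Srxn1), reduce quinones (Nqo1) and break down heme (Hmox1). Metallothioneins are small cysteine-rich proteins that bind zinc and copper, and their genes answer to zinc through MTF1 on metal response elements. In brain, Mt1 and Mt2 are known mainly from astrocytes, whereas Mt3 is also made by neurons.

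The libraries held between 7407189 and 13092763 counts on genes, of which mitochondrial genes took 1.75% to 2.79%. The cultures carried markers listed for granule neurons, with Neurod1 at 366 to 963 CPM (gene counts scaled to a common library size) and Rbfox3 at 219 to 559 CPM. Gabra6 was at 35.6 to 216 CPM and Etv1 at 58.4 to 340 CPM. Markers of other cells were present too. The 10 astroglial markers summed to between 2690 and 8657 CPM, and the 8 fibroblast and mural markers to between 7497 and 10941 CPM. The endothelial markers summed to between 54.8 and 91.3 CPM, with Cldn5 under 1 CPM in every library and Cdh5 at 26.5 to 61.6 CPM. The progenitor markers summed to between 566 and 984 CPM, with Atoh1 under 1 CPM and Mki67 at 74.4 to 136 CPM. CPM here is relative to the counts on tested genes and scaled by TMM factors. In bulk RNA, fewer cells of a type and less RNA per cell cannot be told apart.

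The astroglial sum differed between replicates in the same order in both groups, highest in replicate 1 and lowest in replicate 2. It was 8367, 2831 and 4696 CPM in DMSO replicates 1, 2 and 3, and 8657, 2690 and 4650 CPM in GSK-126 replicates 1, 2 and 3. Deviations of the libraries from their group means were correlated over genes, and DMSO and GSK-126 libraries with different numbers had correlations of 0.0064 or less. Such deviations cancel out over the libraries of a group, so these low values are partly set by the centring and are no separate support for pairs. Libraries with the same number deviated together (correlations of 0.56, 0.63 and 0.49), so the numbers were taken as pairs. Each result is therefore given from edgeR's quasi-likelihood test without a block and, where the call changes, from the same test with the replicate number as a block.

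The motifs that NRF2 and MTF1 are known to read were looked for in the 250 bases before the RefSeq start of each gene (GRCm38.p6), and 8 of the 10 genes matched a row, Hmox1 and Gclc being the others. The searches, on both strands, were TGACNNNGC or TGAGNNNGC for the antioxidant response element core, TGCACNC or TGCGCNC for the metal response element core, and TGACTCA or TGAGTCA for AP-1, which can overlap the first. At least 1 antioxidant match was present in 23.0% of the 32851 windows of this length, at least 1 metal match in 21.4% and at least 1 AP-1 match in 4.46%. The windows of Mt1, Mt2 and Srxn1 are shown because the metallothioneins passed the test with the replicate block and Srxn1 holds the most antioxidant matches of the 8 genes. Capitals mark antioxidant and metal response element matches. Mt1 is chr8:94178839-94179088, Mt2 is chr8:94172368-94172617 and Srxn1 is chr2:152105274-152105523, all on the plus strand and written 5′ to 3′.
Mt1: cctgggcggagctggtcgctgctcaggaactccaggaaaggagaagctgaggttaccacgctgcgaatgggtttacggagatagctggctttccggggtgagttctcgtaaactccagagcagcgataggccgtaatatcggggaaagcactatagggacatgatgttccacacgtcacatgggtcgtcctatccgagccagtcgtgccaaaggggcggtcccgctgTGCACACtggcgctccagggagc
Mt2: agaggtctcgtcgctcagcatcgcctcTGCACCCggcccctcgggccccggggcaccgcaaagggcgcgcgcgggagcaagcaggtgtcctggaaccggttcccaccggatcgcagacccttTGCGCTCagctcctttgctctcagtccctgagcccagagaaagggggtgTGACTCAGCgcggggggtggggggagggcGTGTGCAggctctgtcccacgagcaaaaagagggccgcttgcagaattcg
Srxn1: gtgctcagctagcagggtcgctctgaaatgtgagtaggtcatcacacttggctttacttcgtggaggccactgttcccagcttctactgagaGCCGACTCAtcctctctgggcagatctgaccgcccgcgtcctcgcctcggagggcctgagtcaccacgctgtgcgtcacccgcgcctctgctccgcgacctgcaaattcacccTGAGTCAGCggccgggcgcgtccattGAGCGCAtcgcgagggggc

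Mt2 held 3 metal matches, a number reached by 1.26% of all windows, and 1 antioxidant match that began 79 bases before the start and overlapped an AP-1 match. Mt1 held a single metal match in its window. GENCODE lists 3 starts for Mt1, and the 250 bases before the second of them (chromosome 8, 94178961 to 94179210) held 5 metal matches and 1 antioxidant match, so the count for Mt1 depends on which start is read. Srxn1 held 2 antioxidant matches, where 3.18% of all windows had 2 or more, and 2 AP-1 matches, 1 of which overlapped an antioxidant match. Nfe2l2 and Slc7a11 each had 1 antioxidant match, Gclm had 1 antioxidant and 2 metal matches, Txnrd1 had 1 antioxidant match over its 3 starts, and Nqo1 had none in this window. A match is a run of letters, and binding was not measured here.

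**Figure D1:**
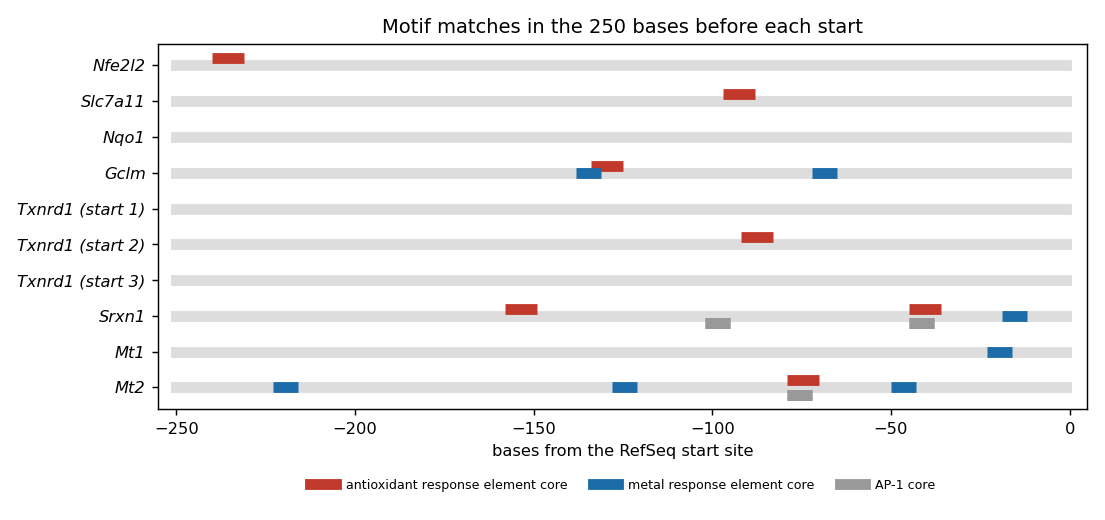
Motif matches in the 250 bases before the RefSeq start of 8 genes, with 3 starts for Txnrd1; the x axis is bases from the start and each colour is a motif. Metal matches are most frequent in Mt2, with 3, and antioxidant matches in Srxn1, with 2.

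Levels were compared between genes per kilobase of exon. On this scale Mt2 had the highest mean of the 6 libraries, with 308 CPM per kilobase, followed by Mt1 with 168 and Hmox1 with 79.3, and these 3 genes kept this order in all 6 libraries. The place of Mt2 above Mt1 is uncertain, because most of its exon bases are shared with an antisense gene of nearly equal counts, Gm45774. Txnrd1 followed with 20.9 and was above Srxn1, with 19.6, in every library. The next genes did not keep an order: Nfe2l2 had 18.1, Gclc 16.4, Slc7a11 15.8 and Gclm 13.7, and each neighbour in this run changed places in at least 2 libraries. Nqo1 had the lowest level, 5.60, and was last in all 6 libraries.

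With GSK-126, the metallothioneins Mt1 and Mt2 and the heme oxygenase Hmox1 were higher than with DMSO in each of the 3 pairs, by 1.39-, 1.45- and 1.42-fold in the fit with the replicate block. In that fit these 3 of the 10 genes passed an adjusted p of 0.05 as higher and 0 as lower, against a background of 3.35% of all tested genes called higher and 5.09% called lower. The other 7, which include the gene for NRF2 and those for cystine import, glutathione synthesis, thioredoxin reduction and quinone reduction, did not pass. In the main fit, which had no block, edgeR called 0 of the 10 genes and 0% of all 16729 genes. At an unadjusted p under 0.05 that fit had 0 of the 10 and 3.98% of all genes. DESeq2 called 0 of the 10 without the block, where it called 0.126% of all genes. With the block it called 2 of the 10 as higher, Mt1 and Mt2, against 2.22% of all genes called higher and 3.75% called lower. The groups overlapped for all 10 genes, while 9.44% of all tested genes had groups that did not overlap. Of the 10 genes, 6 were higher with GSK-126 in all 3 pairs and 0 were lower in all 3, where 19.5% of all tested genes were higher and 22.7% lower in all 3. The 10 genes were chosen with earlier results of these data known, so these shares describe them and are no test of enrichment.

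**Figure D2:**
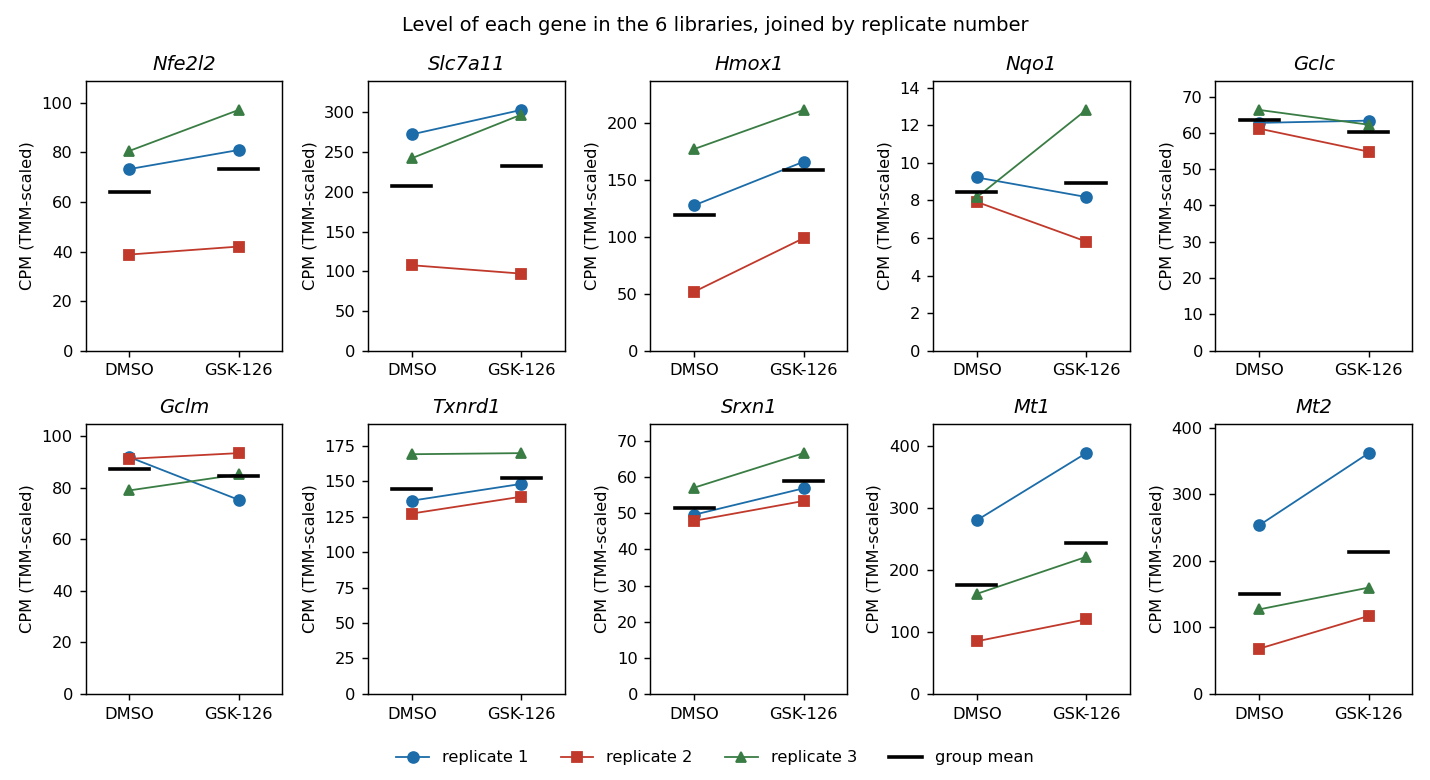
Level of each of the 10 genes in the 6 libraries, in CPM scaled by TMM on axes that start at 0; lines join libraries of the same replicate number and black bars are group means. The lines of Hmox1, Mt1 and Mt2 all go up, while replicate 2 lies below the others in both groups for these genes and for Nfe2l2 and Slc7a11.

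Mt1 (ENSMUSG00000031765.8, chromosome 8, 94179082 to 94180327, plus strand, GRCm38) was read at 280, 85.0 and 162 CPM in DMSO replicates 1, 2 and 3 and at 389, 120 and 221 CPM in GSK-126 replicates 1, 2 and 3. The GSK-126 library was the higher of each pair, by 1.39-, 1.42- and 1.37-fold, so the pairs differed little in their ratio although replicate 1 had over 3 times the level of replicate 2. The group means were 176 ± 98.5 CPM for DMSO and 244 ± 136 CPM for GSK-126 (SD, n = 3). With the block the log2 fold change was 0.48 (SE 0.072, 95% interval 0.32 to 0.63, edgeR, Benjamini-Hochberg adjusted p = 0.000223). Without the block it was 0.47 (SE 0.50, edgeR, Benjamini-Hochberg adjusted p = 0.953), and it was -0.03 when GSK-126 replicate 1 was left out of that fit.

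Mt2 (ENSMUSG00000031762.7, chromosome 8, 94172664 to 94173568, plus strand), the neighbour of Mt1, had 254, 68.1 and 127 CPM in the DMSO libraries and 362, 117 and 160 CPM in the GSK-126 libraries. It was higher with GSK-126 by 1.43-, 1.72- and 1.26-fold in pairs 1, 2 and 3, a wider range than for Mt1. With the block the log2 fold change was 0.54 (SE 0.085, 95% interval 0.36 to 0.71, edgeR, Benjamini-Hochberg adjusted p = 0.000318), and without it 0.51 (SE 0.54, edgeR, Benjamini-Hochberg adjusted p = 0.953), or -0.10 when GSK-126 replicate 1 was left out. Of the 588 exon bases of Mt2, 432 are shared with Gm45774, an antisense gene on the opposite strand. Gm45774 had nearly as many counts as Mt2 in every library, from 0.961 to 1.06 times, and a log2 fold change of 0.51 with the block (SE 0.081, edgeR, Benjamini-Hochberg adjusted p = 0.000319). The strand setting of the counting is not given in the sources used here, so reads of the pair cannot be told apart.

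Hmox1 (ENSMUSG00000005413.8, chromosome 8, 75093621 to 75100589, plus strand), which encodes the inducible enzyme that splits heme into iron, carbon monoxide and biliverdin, had 128, 51.8 and 177 CPM with DMSO. With GSK-126 it had 166, 98.9 and 211 CPM, and the ratio within pairs was 1.30, 1.91 and 1.19. Pair 2, with the lowest levels, had the largest ratio. In the block fit, Hmox1 had a log2 fold change of 0.50 (SE 0.10, 95% interval 0.29 to 0.71, edgeR, Benjamini-Hochberg adjusted p = 0.00271), and 0.32 when pair 2 was left out (edgeR, Benjamini-Hochberg adjusted p = 0.0232). DESeq2 with the same block did not call it (Benjamini-Hochberg adjusted p = 0.115), and neither did edgeR without the block (log2 fold change 0.42, SE 0.43, Benjamini-Hochberg adjusted p = 0.953). In that fit the log2 fold change ran from 0.061 without DMSO replicate 2 to 0.83 without DMSO replicate 3.

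**Figure D3:**
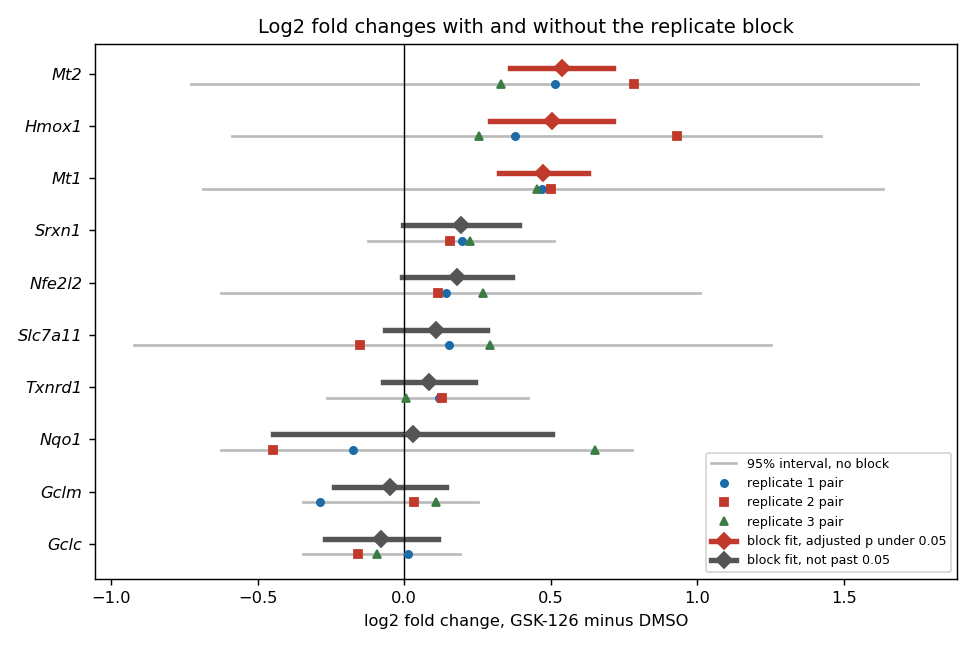
Log2 fold changes of the 10 genes, GSK-126 minus DMSO; diamonds and thick bars are the fit with the replicate block and its 95% interval, grey bars the 95% interval without the block, and small symbols the 3 pairs. The block interval lies above 0 for Mt2, Hmox1 and Mt1 and includes 0 for the other 7 genes, and without the block all 10 intervals include 0.

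Nfe2l2 (ENSMUSG00000015839.6, chromosome 2, 75675513 to 75704641, minus strand) had 73.2, 38.8 and 80.6 CPM with DMSO and 80.9, 42.0 and 97.1 CPM with GSK-126. Every pair was slightly higher with GSK-126, by 0.14, 0.11 and 0.27 on the log2 scale. The log2 fold change was 0.19 without the block (SE 0.35, edgeR, Benjamini-Hochberg adjusted p = 0.961) and 0.18 with it (95% interval -0.01 to 0.37, edgeR, Benjamini-Hochberg adjusted p = 0.259). In the fit with no block it became -0.07 if DMSO replicate 2 was dropped and -0.06 if GSK-126 replicate 3 was. NRF2 is controlled mainly at the protein level, which was not measured here.

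Slc7a11 (ENSMUSG00000027737.10, chromosome 3, 49892526 to 50443614, minus strand), the cystine and glutamate exchanger that feeds glutathione synthesis, had 272, 108 and 242 CPM with DMSO and 303, 97.0 and 297 CPM with GSK-126. Replicate 2 was the lowest library of each group, and it was the pair in which the GSK-126 library was the lower. The log2 fold change was 0.16 without the block (SE 0.47, edgeR, Benjamini-Hochberg adjusted p = 0.972), and it became -0.14 if DMSO replicate 2 was dropped, and -0.06 or -0.05 if replicate 1 or 3 of GSK-126 was. The block fit gave 0.11 (95% interval -0.06 to 0.28, edgeR, Benjamini-Hochberg adjusted p = 0.490).

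The catalytic and modifier subunits of glutamate-cysteine ligase, which runs the rate-limiting step of glutathione synthesis, were among the steadiest of the 10 genes. Gclc (ENSMUSG00000032350.9, chromosome 9, 77754535 to 77794485, plus strand) had 62.8, 61.2 and 66.3 CPM with DMSO and 63.4, 54.8 and 62.2 CPM with GSK-126. The log2 fold change of Gclc was -0.08 (SE 0.12, edgeR, Benjamini-Hochberg adjusted p = 0.961), and 0.0032 without GSK-126 replicate 2. Gclm (ENSMUSG00000028124.15, chromosome 3, 122245557 to 122270732, plus strand) had 91.9, 91.3 and 79.0 CPM with DMSO and 75.3, 93.5 and 85.2 CPM with GSK-126, so the GSK-126 library was the lower in pair 1 only. Its log2 fold change was -0.05 (SE 0.13, edgeR, Benjamini-Hochberg adjusted p = 0.972), and it turned to 0.0080 and 0.05 when DMSO or GSK-126 replicate 1 was left out. With the block, the 95% intervals were -0.27 to 0.12 for Gclc and -0.24 to 0.14 for Gclm. Gclm shares 296 exon bases with Gm17494 on the opposite strand and 244 with the pseudogene Gm6061 on its own strand.

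Txnrd1 (ENSMUSG00000020250.10, chromosome 10, 82833951 to 82897712, plus strand), the cytosolic thioredoxin reductase, had 136, 127 and 169 CPM with DMSO and 148, 139 and 170 CPM with GSK-126. The log2 fold change of Txnrd1 was 0.08 (SE 0.15, edgeR, Benjamini-Hochberg adjusted p = 0.961), or 0.09 with the block (95% interval -0.07 to 0.24), and was between -0.01 and 0 when DMSO replicate 2 or GSK-126 replicate 3 was left out. Srxn1 (ENSMUSG00000032802.8, chromosome 2, 152105516 to 152111376, plus strand), which restores over-oxidised peroxiredoxins, had 49.6, 47.9 and 57.1 CPM with DMSO and 56.9, 53.4 and 66.7 CPM with GSK-126. All 3 pairs of Srxn1 were higher with GSK-126, by 0.20, 0.16 and 0.22 on the log2 scale. Srxn1 had a log2 fold change of 0.19 in both fits, and the block fit had a 95% interval of -0.0053 to 0.39 (edgeR, Benjamini-Hochberg adjusted p = 0.953 without the block and 0.247 with it).

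Nqo1 (ENSMUSG00000003849.8, chromosome 8, 107388225 to 107403206, minus strand), a quinone reductase often used as a readout of NRF2, was the least abundant of the 10, with 54 to 108 counts per library. It had 9.23, 7.92 and 8.17 CPM with DMSO and 8.19, 5.82 and 12.8 CPM with GSK-126. Pairs 1 and 2 were lower with GSK-126 and pair 3 was higher. Its log2 fold change was 0.08 without the block (SE 0.30, edgeR, Benjamini-Hochberg adjusted p = 0.978) and 0.03 with it (95% interval -0.45 to 0.50, edgeR, Benjamini-Hochberg adjusted p = 0.962), and it became -0.26 if GSK-126 replicate 3 was dropped or -0.30 without pair 3 in the block fit. The interval of Nqo1 was the widest of the 10 with the block, so a change of the size of Mt1's was not detectable at this depth and spread.

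Levels of several of the 10 genes varied more between cultures than between treatments. The highest library exceeded the lowest by 5.32-fold for Mt2, 4.57-fold for Mt1, 4.08-fold for Hmox1, 3.12-fold for Slc7a11 and 2.50-fold for Nfe2l2, and replicate 2 was the lowest of its group for each. Nqo1 varied by 2.20-fold, and Srxn1, Txnrd1, Gclm and Gclc by 1.39-fold or less. The summed astroglial markers varied by 3.22-fold over the same libraries and were also lowest in replicate 2, and the 10 microglia and macrophage markers varied by 2.53-fold. The granule neuron markers went the other way, with their highest sums, 6929 and 5675 CPM, in replicate 2.

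The glial sums were also read within pairs, beside the 3 genes that passed with the block. The astroglial sum changed by 1.03-, 0.950- and 0.990-fold from DMSO to GSK-126, and 1 of its 10 markers, S100b, passed as higher with the block. Divided by this sum, Mt1 was 1.34-, 1.49- and 1.38-fold higher with GSK-126 and Mt2 1.38-, 1.81- and 1.27-fold. Hmox1 divided by the same sum was 1.26-, 2.01- and 1.21-fold higher. The astroglial markers did not move together, as 4 of the 10 rose in all 3 pairs and 5 fell in all 3. S100b rose by 1.35-, 1.68- and 1.44-fold, so these ratios depend on the markers chosen. The microglia and macrophage sum was 1.23-, 1.37- and 1.14-fold higher, running from 317 to 654 CPM with DMSO and from 435 to 803 CPM with GSK-126, and 3 of its 10 markers (C1qa, C1qb and C1qc) passed as higher with the block. Divided by the microglia and macrophage sum, Hmox1 was 1.06-, 1.39- and 1.05-fold higher, Mt1 1.13-, 1.03- and 1.20-fold and Mt2 1.16-, 1.26- and 1.10-fold. These markers rose unevenly with the block, by log2 fold changes of 0.48 for C1qa, 0.43 for C1qb and 0.35 for C1qc. The other markers of this list ran from 0.05 for Aif1 to 0.27 for Tmem119, with Csf1r at 0.14, so these ratios too depend on the markers chosen. The fibroblast and mural sum was 1.24-, 1.06- and 1.09-fold higher, with 3 of 8 markers passing as higher with the block. The granule neuron sum was 0.817-, 0.819- and 0.791-fold of DMSO, with 5 of 10 markers passing as lower with the block. The progenitor sum was 1.31-, 1.18- and 1.14-fold of DMSO, and 2 of 6 tested markers, Ccnd2 and Barhl1, passed as higher with the block. Their log2 fold changes were 0.41 and 0.33. The markers that did not pass had 0.49 (Mycn), 0.22 (Ccnd1), 0.09 (Mki67) and 0.0063 (Top2a), and Atoh1 and Gli1 were too low to be tested. The GABAergic neuron sum was 0.836-, 0.813- and 0.672-fold of DMSO, with 3 of 7 markers passing as lower with the block. The part of these shifts in the changes of Mt1, Mt2 and Hmox1 was not tested.

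**Figure D4:**
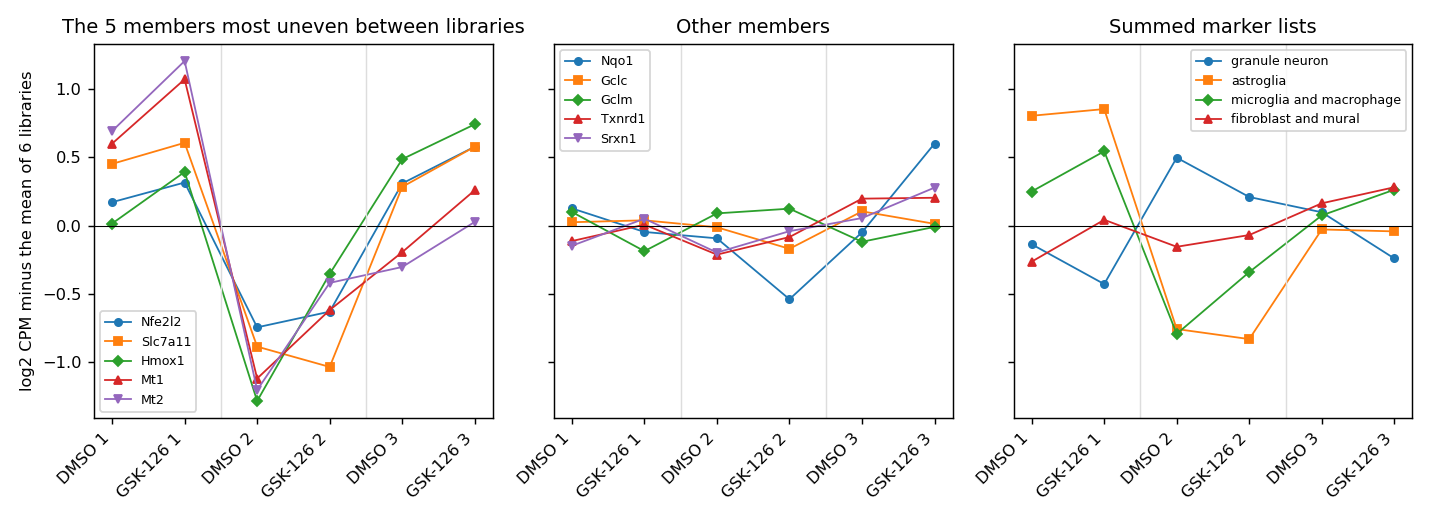
Log2 CPM of each gene or summed marker list minus its mean over the 6 libraries, ordered by replicate number; the left panel holds the 5 most uneven of the 10 genes, the middle the other 5 and the right 4 summed marker lists. The left panel and the astroglial and microglial sums dip in both replicate 2 libraries, where granule neuron markers peak.

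The genes nearest in pattern were sought among 15383 genes, by the root mean square difference of log2 CPM over the 6 libraries after each gene was centred on its mean. For Mt1 these were Tst, a mitochondrial sulfurtransferase, at 0.064, Id4 at 0.084 and Id1 at 0.109, both inhibitors of bHLH factors, and Mt2 was the ninth at 0.152. For Hmox1 they were Smim20 at 0.047, Ftl1, the ferritin light chain, at 0.083 and Fcgr3, an Fc receptor of macrophages and microglia, at 0.090. For Slc7a11 they included the selenium carrier Selenop at 0.106 and the water channel Aqp1 at 0.122. Nfe2l2 ranked number 87 by nearness to Slc7a11 and number 180 by nearness to Hmox1. These are descriptions over 6 libraries that share their cultures in pairs.

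Beside the 10 genes, 86 others in 8 lists covered the NRF2 partners and repressors and the antioxidant, iron and zinc systems. Of these, 77 passed the filter on low counts. Without the block edgeR called 0 of the 77, with 4 at an unadjusted p under 0.05 where all genes had 3.98%, and DESeq2 called 1, Idh1. With the block, edgeR called 5 as higher and 1 as lower, beside 3.35% and 5.09% of all genes, and DESeq2 called 4 as higher beside its 2.22%, adding Fth1 and leaving out Maff and Mafk. The median log2 fold change with the block was 0.14 for the 10 genes and -0.0056 for all tested genes. The lists too were chosen with earlier results known, so these comparisons are descriptions only.

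Of the 10 NRF2 partners and repressors, Maff and Mafk, which encode small MAF partners, rose in the block fit and Cul3 fell. Maff had 5.88, 10.2 and 7.13 CPM with DMSO and 13.4, 11.4 and 16.6 CPM with GSK-126, with no overlap of the groups and a log2 fold change of 0.84 with the block (SE 0.22, edgeR, Benjamini-Hochberg adjusted p = 0.0165). Mafk had 5.77, 8.76 and 9.99 CPM against 10.6, 11.95 and 16.2 CPM, also without overlap (log2 fold change 0.67, SE 0.19, edgeR with the block, Benjamini-Hochberg adjusted p = 0.0317), and it shares 169 exon bases with Tmem184a on the opposite strand. Both are low, and DESeq2 with the block gave no adjusted p for either. Cul3, the ligase scaffold that acts with KEAP1, had 152, 221 and 170 CPM with DMSO and 138, 164 and 142 CPM with GSK-126 (log2 fold change -0.27, SE 0.078, edgeR with the block, Benjamini-Hochberg adjusted p = 0.0329). Its groups overlapped, and DESeq2 with the block did not call it (Benjamini-Hochberg adjusted p = 0.0526). Keap1 was between 51.5 and 58.8 CPM in all 6 libraries, with a log2 fold change of 0.05 (edgeR with the block, Benjamini-Hochberg adjusted p = 0.828) and 510 exon bases shared with the antisense gene Gm16754. Bach1 was between 70.4 and 81.6 CPM, with a log2 fold change of 0.10 (edgeR with the block, Benjamini-Hochberg adjusted p = 0.559).

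Of the 6 NADPH-producing enzymes, 2 rose in the block fit. Idh1, the cytosolic isocitrate dehydrogenase, had 120, 96.5 and 102 CPM with DMSO and 164, 165 and 156 CPM with GSK-126. The groups of Idh1 did not overlap, and its log2 fold change was 0.61 with the block (SE 0.081, edgeR, Benjamini-Hochberg adjusted p = 5.7e-05). Tkt, the transketolase of the pentose phosphate pathway, had 131, 113 and 131 CPM against 172, 148 and 150 CPM, also without overlap (log2 fold change 0.33, SE 0.078, edgeR with the block, Benjamini-Hochberg adjusted p = 0.0104).

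Of the 8 heme and iron genes, Ftl1 alone passed edgeR with the block. Ftl1, which stores the iron that Hmox1 frees, had 1022, 482 and 1379 CPM with DMSO and 1411, 805 and 1805 CPM with GSK-126, and replicate 2 was the lowest of both groups as for Hmox1. Its log2 fold change was 0.53 (SE 0.074, edgeR with the block, Benjamini-Hochberg adjusted p = 8.8e-05), and 355 of its exon bases are shared with Gm10252 on the opposite strand.

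The other lists held no call by any of the 4 fits. This was so for the 13 tested of 14 glutathione genes (median log2 fold change with the block 0.13), the 9 tested of 10 thioredoxin and peroxiredoxin genes (0.12), the 4 superoxide dismutases and catalase (-0.08) and 7 other detoxification genes (-0.09). Of 27 zinc handling genes, 20 were tested, and their median log2 fold change with the block was 0.0029. Mtf1, whose product drives Mt1 and Mt2 through metal response elements, had 52.9, 52.6 and 44.8 CPM with DMSO and 43.3, 41.1 and 39.3 CPM with GSK-126. The groups of Mtf1 did not overlap, but its log2 fold change of -0.28 did not pass (SE 0.10, edgeR with the block, Benjamini-Hochberg adjusted p = 0.108), and 721 of its exon bases are shared with 1110065P20Rik on the opposite strand. Mt3 had 11.5 to 31.7 CPM with DMSO and 14.5 to 31.5 CPM with GSK-126 (log2 fold change 0.17, edgeR with the block, Benjamini-Hochberg adjusted p = 0.586). Slc30a1, a zinc exporter and target of MTF1, was listed at 0 in all 6 libraries and shares 468 of its 5244 exon bases with 1700034H15Rik. Gstp1 of the glutathione list and Txnrd2 of the thioredoxin list were also at 0 throughout. The cause of these 0 counts was not tested, so they are not read as absence of expression.

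**Figure D5:**
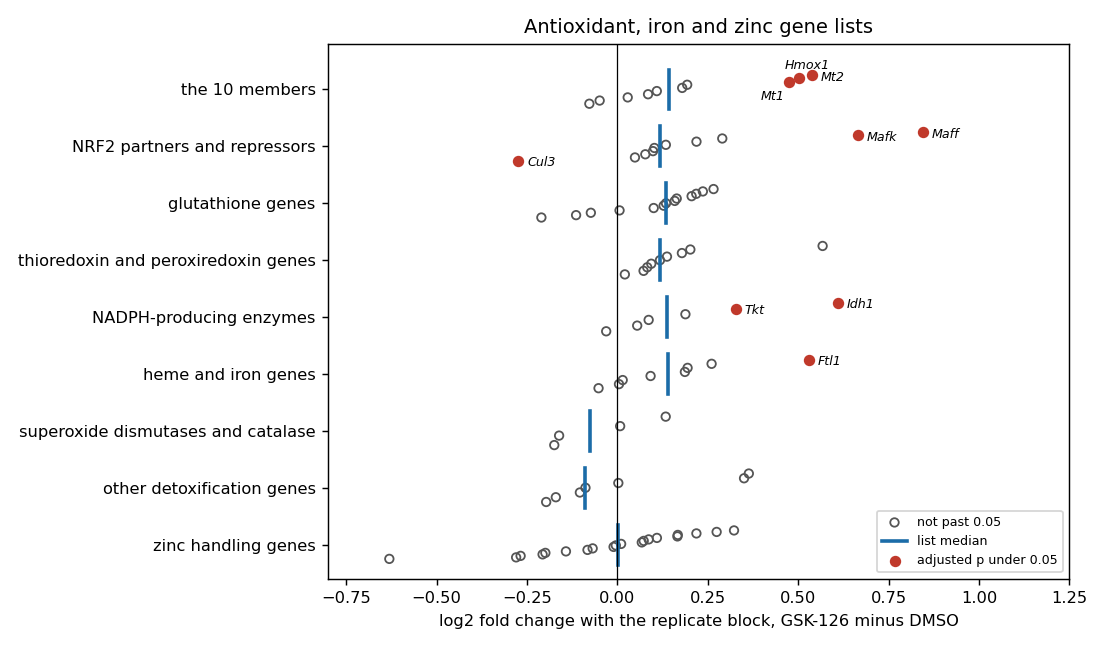
Log2 fold changes with the replicate block for the 10 genes and 8 lists of related genes, GSK-126 minus DMSO; filled points passed an adjusted p of 0.05 and blue bars are list medians. Filled points are Hmox1, Mt1, Mt2, Maff, Mafk, Idh1, Tkt and Ftl1 above 0 and Cul3 below it, while the zinc handling genes centre on 0.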

How the data were processed

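RNA was poly-A enriched and sequenced as paired-end reads. Per the submitters' processing notes and the study's methods, the authors used Trimmomatic 0.38 for trimming, STAR 2.7.2b for alignment to mm10 (GRCm38.p4) and HTSeq for counting on exons. They deposited raw, unnormalized counts per gene for each library. The Gencode release and strand setting are not given in the sources used here; all 55341 symbols matched GENCODE M21, which gave identifiers and coordinates. Lines naming no gene, 58.7% to 60.7% of each table, were left out. No library was a copy of another (chi-square per degree of freedom 8.95 or more).

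Counts were tested in R 4.3.3 with edgeR 4.0.16 (TMM, filterByExpr, quasi-likelihood test, Benjamini-Hochberg adjustment over 16729 genes, threshold 0.05) without a block, since the study names none, and with the replicate number as a block. The pairing comes from the labels' numbers and from the correlations between libraries of the same number given above. The biological coefficient of variation was 24.0% without and 9.74% with the block. The fit without the block was set as the main fit. The fit with the block, DESeq2 1.42.0, other scalings and filters, and fits without each library or pair were alternatives. The fits were also run on simulated counts, which had less noise within pairs than these data, so that run does not show how the fits perform here. The 10 genes and the lists were chosen with earlier results of these data known. All 10 were named, with Keap1, Bach1, Mt3, Mtf1 and Slc30a1 and, per list, up to 3 genes called with the block that had the smallest p; Fth1 was added after its values were seen. Nearest patterns needed a mean log2 CPM over 1 (pseudocount 0.1 CPM). The result of 1 gene chosen by this rule is not reported here. Replicates are cultures of pooled litters. Without the block, p-values measure the spread between such cultures. With the block, they weigh the difference between GSK-126 and DMSO against the spread left within pairs. Both tools estimate that spread partly from all tested genes, so a gene's own 3 pairs do not set it alone. The SD of the 3 pair log2 ratios was 0.024 for Mt1 and 0.36 for Hmox1, while their block SEs were 0.072 and 0.10.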

Additional observations from a re-analysis of the deposited data

How the results depend on the processing

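Without the block, edgeR called 0 genes higher and 0 lower at an adjusted p under 0.05; it called 9 higher and 1 lower with no filter on low counts, and DESeq2 called 20 and 1. With the replicate block, edgeR called 561 higher and 851 lower, DESeq2 372 and 627, and edgeR on total counts 714 and 707, a scale that put the median of all genes at 0.028 in place of -0.0056. Leaving out pair 1, 2 or 3 gave 417 and 671, 337 and 496, and 558 and 719. Of the 10 genes, edgeR with the block called 3, as it did with the block on total counts and with any 1 pair left out. DESeq2 with the block called 2 of the 10. Without the block, edgeR, edgeR on total counts and DESeq2 each called 0 of them. Of the 86 related genes, DESeq2 without the block called 1, edgeR with the block 5 higher and 1 lower, and DESeq2 with the block 4 higher. In the block fit Nqo1 reversed to -0.30 without pair 3 and Gclm to 0.086 without pair 1. Without 1 library and with no block, the log2 fold change ran from -0.066 to 0.49 for Nfe2l2, -0.14 to 0.55 for Slc7a11, 0.061 to 0.83 for Hmox1, 0.099 to 0.28 for Srxn1, -0.26 to 0.32 for Nqo1, -0.10 to 0.0032 for Gclc, -0.11 to 0.047 for Gclm, -0.0054 to 0.21 for Txnrd1, -0.026 to 1.00 for Mt1 and -0.10 to 1.14 for Mt2. Of all recomputed log2 fold changes of the 10 genes, 148 kept the direction and side of the threshold of the fit without the block. Another 15 reversed direction, and 17 passed the threshold where that fit did not. With 3 cultures a group and a spread between cultures this wide, the fit without the block limits what can be called; the cause of the spread was not tested.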
